A study of Mus musculus with 30 samples.

Results

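The secretory and mucosal products of the uterine epithelium were followed through a named list of 10 genes: Ltf, Muc1, C3, Lcn2, Pigr, Prap1, Clca1, Slpi, Wfdc15b and Cyp2f2. A gene was measured by a probe set that carries its symbol and no other. Such a probe set existed for 8 of the 10 genes, out of 30142 genes tested in all. C3 and Slpi are not analysed here: C3 is not listed in the probe annotation used, and the probe set of Slpi also lists a microRNA. Clca1 is the symbol of 2 probe sets, and by Entrez identifier 1 of them is now Clca3a1. The other was used for Clca1. Genes of the CLCA and WFDC15 families have close relatives that may share probe sequence, so their values are uncertain to that extent.

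RNA came from the uterus of pre-pubertal female mice aged 21 days, hybridised to 30 arrays in 10 groups of 3. The knockout mice (KO) carry the genotype label Ex3aERKO, a knockout of estrogen receptor alpha, and the others are wild type (WT). In each genotype, 1 group was taken 24 h after 250 ng of 17β-estradiol (E2) in 100 ul of saline and 1 group 2 h after it. Another group was taken 24 h after the first of 3 injections of 50 ug of insulin-like growth factor 1 (IGF1) in PBS, and another 2 h after 1 such injection. The fifth group of each genotype was the vehicle group, taken 24 h after saline. No vehicle group was taken at 2 h, so a difference from vehicle at 2 h also holds the time since injection, and IGF1 at 24 h also differs from vehicle in solvent and in number of injections. The labels do not say whether the 3 arrays of a group come from separate animals, and the spread behind each p-value may be technical.

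As background, estrogen acts on the uterus through estrogen receptor alpha, a nuclear receptor present in its epithelium, stroma and muscle, and IGF1 made by the stroma is known as one relay of the signal to the epithelium. The mature epithelium covers itself with mucins and releases iron-binding, lipid-binding and protease-inhibiting proteins into the lumen. Lactoferrin, the product of Ltf, is a classical estrogen-induced protein of the mouse uterus.

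Values are deposited log2 values, and a difference of 1 is 2-fold. Differences are given with their standard error (SE) from limma, fitted to all 30 arrays, and a gene was called at a Benjamini-Hochberg adjusted p below 0.05. A floor for each array, the 95th percentile of 1225 olfactory receptor genes, lay at 5.69 to 6.57. Esr1, the gene of estrogen receptor alpha, ran from 9.38 to 10.41 on the 15 KO arrays and from 11.44 to 12.73 on the 15 WT arrays. Where its probes lie relative to the deleted part is not given, so this is a limited check of the labels. All 13 measured markers of uterine epithelium were above the floor on every array. WT vehicle array 1 stood apart. Xist, the RNA of the inactive X chromosome, was at 10.16 on it and at 17.01 to 18.12 on the other 29 arrays, 3 Y-linked genes were below the floor on every array, and this array had the lowest weight of all, 0.166. KO E2 24 h array 2 had the next lowest weight, 0.259.

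**Figure D1:**
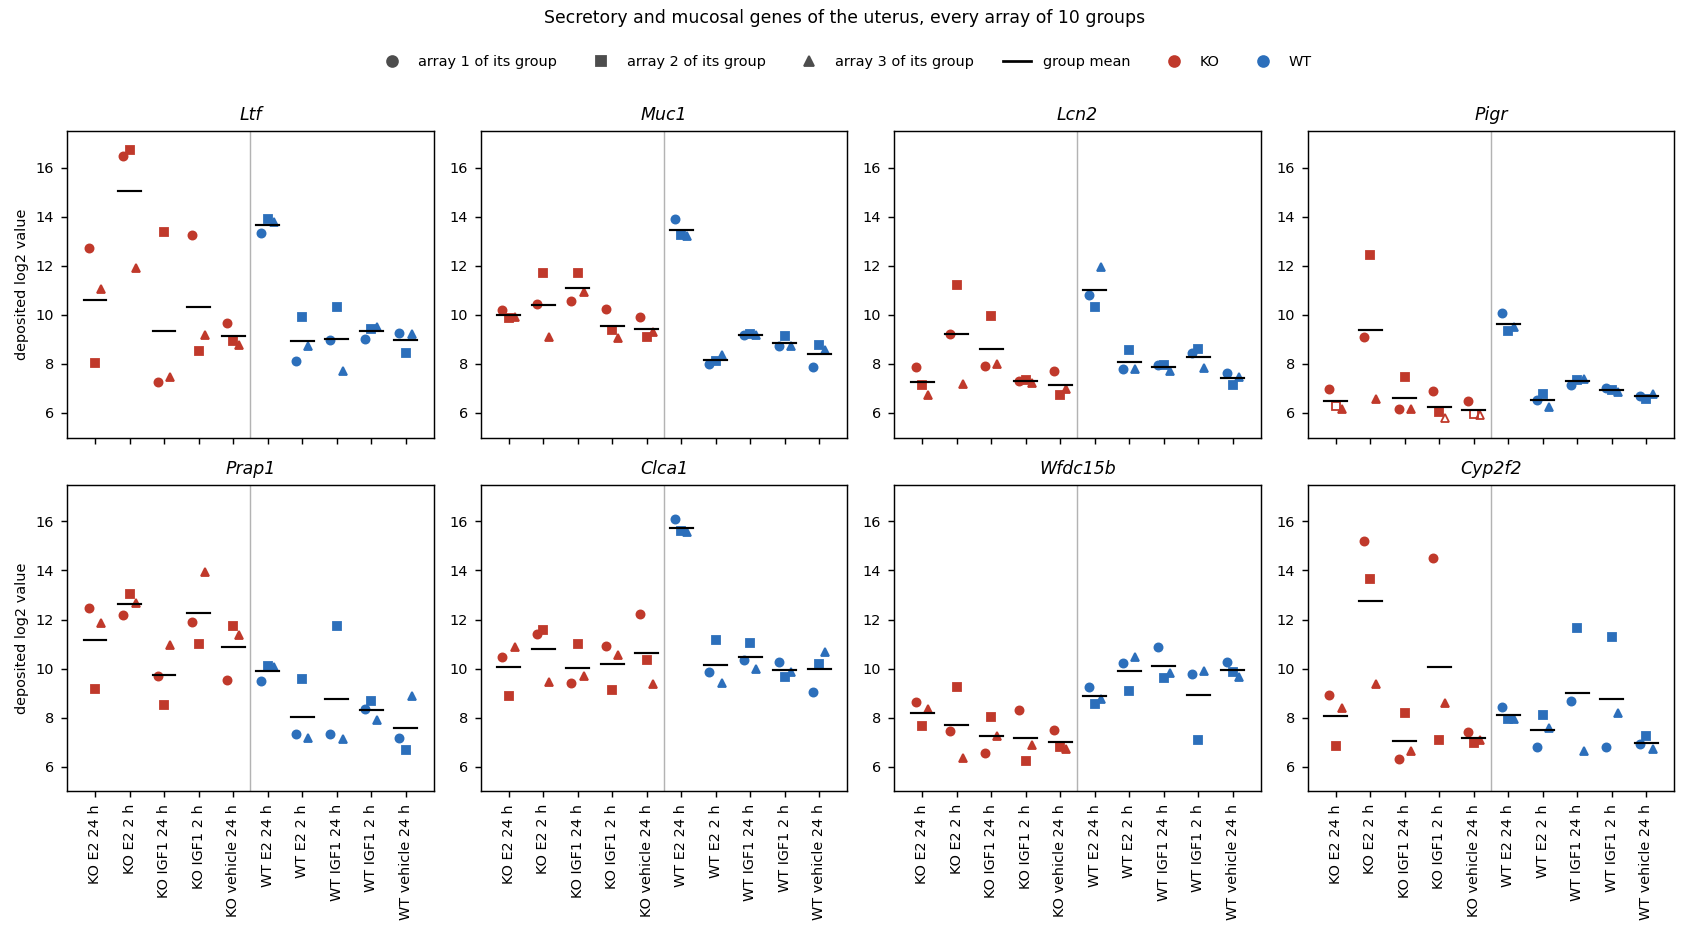
Deposited log2 values (vertical axis) of the 8 measured genes on all 30 arrays, by group (horizontal axis), with KO groups in red left of WT groups in blue, 1 symbol per array, open where the value was at or below the floor of its array, and a bar at each group mean. The WT E2 24 h arrays of Clca1 (15.56 to 16.10) and Muc1 (13.23 to 13.91) lie above every other array, while Ltf and Cyp2f2 spread over several log2 units within KO groups.

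In WT uteri, E2 at 24 h raised 5 of the 8 genes and lowered none. Clca1, a secreted protein of mucus-producing epithelium, rose 54.7-fold, and Muc1, the membrane mucin of the luminal surface, rose 33.2-fold. Ltf rose 26.0-fold, Lcn2, which binds bacterial siderophores, rose 12.2-fold, and Pigr, the receptor that carries IgA across epithelium, rose 7.73-fold. At 24 h after E2, 16.8% of all genes tested were called higher and 13.3% lower in WT uteri. The vehicle arrays are shared by this comparison and the other WT comparisons with vehicle.

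Clca1 was at 16.10, 15.59 and 15.56 in WT uteri 24 h after E2, against 9.05, 10.19 and 10.68 in WT vehicle uteri. The groups lay far apart, a difference of 5.77 ± 0.68 (limma adjusted p = 6.87e-07). Muc1 was at 13.91, 13.25 and 13.23 after E2, against 7.87, 8.78 and 8.58 with vehicle. Its difference of 5.05 ± 0.42 (adjusted p = 4.76e-09) was the most precise of the 8. Mucin 1 lines the apical face of the luminal epithelium.

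Ltf was at 13.33, 13.90 and 13.76 in WT uteri 24 h after E2, against 9.24, 8.44 and 9.22 in WT vehicle uteri. All 3 treated arrays were above all 3 vehicle arrays, and the difference was 4.70 ± 1.40 (adjusted p = 0.0133). The SE pools the spread of all 10 groups. Lcn2 was at 10.79, 10.32 and 11.95 after E2, against 7.64, 7.13 and 7.47 with vehicle, a difference of 3.61 ± 0.64 (adjusted p = 0.000124). Pigr was at 10.07, 9.35 and 9.50 after E2, against 6.71, 6.57 and 6.79 with vehicle, where it lay just above the floor, a difference of 2.95 ± 0.76 (adjusted p = 0.00465). Neither gene had an overlap between the groups.

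The other 3 genes were not called. Prap1, the gene of a proline-rich acidic secreted protein known from pregnant uterus and gut, was at 9.48, 10.11 and 10.08 in WT uteri 24 h after E2, against 7.19, 6.67 and 8.90 in WT vehicle uteri. Its difference was 2.30 ± 1.03 (adjusted p = 0.0933). Wfdc15b, of the whey acidic protein family of protease inhibitors and antibacterial peptides, was at 9.27, 8.57 and 8.78 after E2, against 10.27, 9.87 and 9.65 with vehicle, a difference of -1.06 ± 0.67 (adjusted p = 0.246). Cyp2f2, a cytochrome P450 best known from club cells of the mouse airway, was at 8.44, 7.96 and 7.95 after E2, against 6.93, 7.25 and 6.71 with vehicle, a difference of 1.15 ± 1.48 (adjusted p = 0.584). None of the 3 overlapped between the groups, so 7 of the 8 genes lay wholly above vehicle and 1 wholly below, where 21.0% and 21.4% of all genes did. With only these 2 groups in the fit, all 8 were called, with adjusted p of 0.0188 for Prap1, 0.0163 for Wfdc15b and 0.00602 for Cyp2f2, the lowest values of any setting. The highest over the settings were 0.224, 0.475 and 0.717. Calls over all genes moved with the setting too. They ran from 6662 to 12271 over the alternatives other than leaving out 1 array (9065 in the fit of all groups).

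Without WT vehicle array 1, the same 5 genes were called, with differences of 5.31 for Clca1, 4.78 for Muc1, 4.84 for Ltf, 3.72 for Lcn2 and 2.96 for Pigr. Their adjusted p-values then were at most 0.0301, that of Ltf, which reached 0.0405 with another array left out. Epithelial markers moved with these genes. The mean of the 13 markers was 11.29 to 11.35 in WT uteri 24 h after E2, against 8.80 to 9.21 in WT vehicle uteri, 11 of the 13 were called higher, and Krt8, a keratin of simple epithelium, rose by 4.06 ± 0.39. In bulk tissue, more cells of a type and more RNA per cell cannot be told apart, and the part of epithelial cell number in these rises was not tested. Krt5, a keratin of stratified epithelium, was at 6.78, 14.34 and 14.00 on the E2 arrays, against 7.70, 7.28 and 6.45 on the vehicle arrays. On array 1, where Krt5 was low, Clca1, Muc1 and Pigr had their highest value of the 3 E2 arrays, and Ltf and Lcn2 were above every vehicle array. The part of stratified epithelium in these rises was not tested.

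**Figure D2:**
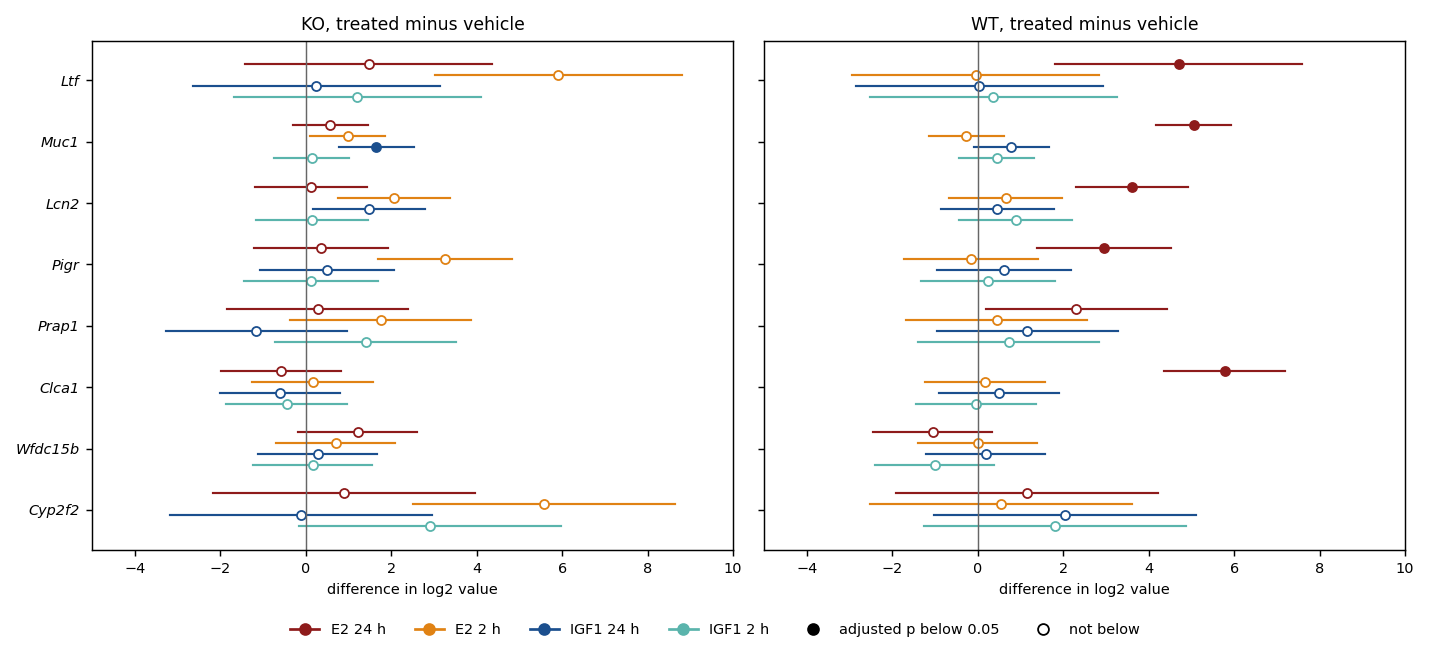
Log2 difference between treated and vehicle uteri (horizontal axis) for each of the 8 genes, in KO mice (left) and WT mice (right), with 95% intervals from limma and filled circles at adjusted p below 0.05. In WT, 5 genes have filled circles at E2 24 h and none at the other treatments. In KO, Muc1 at IGF1 24 h is the 1 filled circle.

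The promoters of the genes that rose together are shown because estrogen receptor alpha binds DNA at inverted repeats of the letters GGTCA. RefSeq (GRCm38.p6) gave a promoter for 7 of the 8 genes, all but Clca1. The 250 bases before the start of Ltf, Muc1, Lcn2 and Pigr follow, with that of Prap1 for comparison, each 5′ to 3′ on the strand of its gene. Capitals mark the letters GGTCA or their reverse complement TGACC.
Ltf promoter, chr9:111019042-111019291, plus strand: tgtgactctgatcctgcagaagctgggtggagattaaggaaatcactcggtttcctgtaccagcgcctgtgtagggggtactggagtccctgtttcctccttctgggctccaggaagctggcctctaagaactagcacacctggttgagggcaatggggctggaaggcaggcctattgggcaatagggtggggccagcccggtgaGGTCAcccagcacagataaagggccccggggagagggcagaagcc
Muc1 promoter, chr3:89228806-89229055, plus strand: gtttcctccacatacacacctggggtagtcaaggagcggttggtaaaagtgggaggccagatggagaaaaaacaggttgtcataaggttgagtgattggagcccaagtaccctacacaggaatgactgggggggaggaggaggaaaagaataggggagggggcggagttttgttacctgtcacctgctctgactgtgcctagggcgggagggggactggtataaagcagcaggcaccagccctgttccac
Lcn2 promoter, chr2:32387740-32387989, minus strand: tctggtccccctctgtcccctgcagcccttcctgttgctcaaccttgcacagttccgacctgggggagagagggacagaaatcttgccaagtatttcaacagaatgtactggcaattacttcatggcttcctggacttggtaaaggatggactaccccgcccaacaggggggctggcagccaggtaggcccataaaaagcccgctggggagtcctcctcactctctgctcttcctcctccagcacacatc
Pigr promoter, chr1:130826434-130826683, plus strand: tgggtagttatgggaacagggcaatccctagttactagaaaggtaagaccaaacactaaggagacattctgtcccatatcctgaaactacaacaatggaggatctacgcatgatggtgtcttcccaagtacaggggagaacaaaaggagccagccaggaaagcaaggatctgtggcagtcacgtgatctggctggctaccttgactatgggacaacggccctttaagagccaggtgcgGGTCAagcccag
Prap1 promoter, chr7:140093146-140093395, plus strand: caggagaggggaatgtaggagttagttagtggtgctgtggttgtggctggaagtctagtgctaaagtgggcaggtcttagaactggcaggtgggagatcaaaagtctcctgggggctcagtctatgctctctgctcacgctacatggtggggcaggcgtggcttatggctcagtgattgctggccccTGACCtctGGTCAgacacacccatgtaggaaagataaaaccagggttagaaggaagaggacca
Positions count back from the start of the gene, whose preceding base is -1. The promoter of Ltf held 1 such match, with its first base at -45, and that of Pigr 1, at -12. Muc1 and Lcn2 had no match in this window. Prap1 had 2, at -63 and -55. Wfdc15b had 2 matches and Cyp2f2 1. Of 32851 mouse promoters of the same length, 35.2% held GGTCA on either strand and 0.0639% the full inverted repeat GGTCANNNTGACC, which reads the same on both strands and contains 2 of the shorter matches. The full repeat was in the promoter of none of the 7 genes. A match only describes these letters. Bases outside this window were not searched, and a link between matches and the changes was not tested.

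Genes of the same families were counted beside the 8 in WT uteri 24 h after E2 against WT vehicle uteri. In this comparison 16.8% of all genes were called higher and 13.3% lower, and the counts of some lists lay near these shares. Of 10 measured mucins, 3 rose, with Muc20 (4.69 ± 0.36) and Muc4 (4.48 ± 0.48), both of epithelial surfaces, next to Muc1. Muc4 was above the floor on 2 of 3 vehicle arrays. Another 2 mucins, Muc3a and Muc6, passed the threshold as lower but were below the floor on every array of both groups. The median of the mucins was -0.25, against -0.10 over all genes. Of 15 complement genes and regulators, 3 rose and 3 fell (median 0.22), led by Cfb, factor B of the alternative pathway (4.47 ± 0.95), Clu (2.46 ± 0.40) and Cfi (1.98 ± 0.40). Of 11 genes of iron and siderophore handling, 5 rose and none fell (median 0.64), with Tfrc, the transferrin receptor, by 3.33 ± 0.31. The rise of Tfrc was called already at 2 h (1.54 ± 0.31).

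Smaller counts came from the other lists in the same comparison, to be set against the same shares of all genes, 16.8% higher and 13.3% lower. Of 6 genes of IgA transport, 2 rose, Pigr and the chemokine Ccl28 (1.99 ± 0.34), and none fell (median -0.11). Of 8 genes of the CLCA family, 2 passed the threshold as higher, Clca1 and Clca2, with a median of 0.30, and Clca2 was below the floor on every array of both groups. Of 8 WFDC genes, 2 rose and 1 fell (median -0.12), with Wfdc2 at 0.97 ± 0.26. The other one that rose, Wfdc18, was above the floor on 0 of 3 vehicle arrays and 2 of 3 E2 arrays. Of 13 antimicrobial genes, 2 rose, and these were Ltf and Lcn2 (median -0.15). Of 16 genes of gland and luminal secretions, 3 rose (median -0.21): Ceacam1, an adhesion protein of epithelial surfaces (5.29 ± 0.32), the chemokine Cxcl17 (4.19 ± 0.50) and Agr2, an endoplasmic reticulum protein needed for mucin production (2.99 ± 0.85), which was above the floor on 2 of 3 vehicle arrays. Several of these families were counted with their members Ltf, Muc1, Lcn2, Pigr, Clca1 or Wfdc15b included.

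At 2 h after E2, none of the 8 genes was called in WT uteri by limma, where 19.0% of all genes were, and none had an unadjusted p below 0.05, as 28.9% of all genes did. The same genes were therefore compared between the E2 times. The 24 h group was above the 2 h group in 5 of 8 genes, where 17.0% of all genes were called higher. The differences were 5.60 ± 0.68 for Clca1, 5.32 ± 0.42 for Muc1, 4.75 ± 1.40 for Ltf, 3.11 ± 0.76 for Pigr and 2.96 ± 0.64 for Lcn2, with adjusted p from 1.02e-09 for Muc1 to 0.0123 for Ltf. Without WT E2 2 h array 1, the call for Ltf was lost (4.35, adjusted p = 0.0533, the highest of any setting, with a lowest of 0.000111). Prap1 was 1.86 higher at 24 h than at 2 h without a call (adjusted p = 0.204). It was called with only these 2 groups in the fit (adjusted p = 0.0410). At 2 h the estrogen target Greb1 was at 11.29, 11.20 and 11.34 in WT uteri after E2, against 6.44, 6.45 and 6.44 in WT vehicle uteri, where 2 of 3 arrays were above the floor.

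IGF1 called none of the 8 genes in WT uteri, at 24 h, where 4.28% of all genes were called, or at 2 h, where 17.2% were. None of the 8 had an unadjusted p below 0.05 at either time, where 18.6% of all genes did at 24 h and 28.9% at 2 h. Of the 8 genes, 3 lay wholly above vehicle at 24 h without reaching the threshold, where 11.7% of all genes lay wholly above. Muc1 was at 9.19, 9.23 and 9.17 in WT uteri 24 h after IGF1, against 7.87, 8.78 and 8.58 in WT vehicle uteri. Lcn2 was at 7.94, 7.96 and 7.71 after IGF1, against 7.64, 7.13 and 7.47 with vehicle, and Pigr at 7.15, 7.34 and 7.39, against 6.71, 6.57 and 6.79. Set directly against IGF1 at 24 h, E2 gave higher levels of 5 genes, where 7.59% of all genes were called higher. The differences were 5.28 ± 0.68 for Clca1, 4.67 ± 1.40 for Ltf, 4.27 ± 0.42 for Muc1, 3.15 ± 0.64 for Lcn2 and 2.35 ± 0.76 for Pigr. Those of Ltf (adjusted p = 0.0326) and Pigr (adjusted p = 0.0496) stood near the threshold. Leaving out 1 array at a time, Pigr lost its call in 6 of 6 fits (up to 0.146) and Ltf kept it in 1 of 6 (up to 0.13). Over the other settings, adjusted p ran from 0.000969 to 0.0824 for Pigr and from 0.00387 to 0.0596 for Ltf. At 2 h no gene was called between E2 and IGF1, where 5.57% of all genes were. Muc1 differed by -0.71 there (adjusted p = 0.527), and was called with only these 2 groups in the fit (adjusted p = 0.0361).

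Without treatment, KO and WT uteri differed in 1 called gene. Wfdc15b was at 7.48, 6.80 and 6.71 in KO vehicle uteri, against 10.27, 9.87 and 9.65 in WT vehicle uteri. The groups did not overlap, a difference of -2.93 ± 0.67 (7.63-fold, adjusted p = 0.0136), and 1.30% of all genes were called lower. Over all groups it ran from 6.24 to 9.27 on the 15 KO arrays and from 7.09 to 10.89 on the 15 WT arrays, which overlap. At 24 h after E2 it was at 8.64, 7.66 and 8.34 in KO uteri, against 9.27, 8.57 and 8.78 in WT uteri, and was not called (adjusted p = 0.428, and 0.0990 at the lowest over the settings). The call was lost without WT vehicle array 1 (adjusted p = 0.0539), KO vehicle array 2 (0.0679) or KO vehicle array 3 (0.0504), with differences from -3.18 to -2.76 over all arrays left out. Over the other settings adjusted p ran from 0.0019 to 0.0545.

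Prap1 and Muc1 had higher means in KO vehicle uteri than in WT vehicle uteri, without a call. Prap1 was at 9.55, 11.73 and 11.38 in KO, against 7.19, 6.67 and 8.90 in WT, a difference of 3.30 ± 1.03 (adjusted p = 0.0936). Muc1 was at 9.90, 9.10 and 9.28 in KO, against 7.87, 8.78 and 8.58 in WT, a difference of 1.01 ± 0.42 (adjusted p = 0.283). Pigr was lower without a call, at 6.49, 5.95 and 5.90 in KO, against 6.71, 6.57 and 6.79 in WT. It was above the floor on 1 of 3 KO arrays. Of the 13 epithelial markers, 5 passed the threshold as higher in KO uteri, where 1.61% of all genes did, and 0 as lower, and their mean was 9.82 to 10.15 in KO vehicle uteri, against 8.80 to 9.21 in WT vehicle uteri. The mean of 6 gland markers was 5.36 to 5.95 in KO vehicle uteri, with 0 to 2 of them above the floor, against 6.18 to 6.76 in WT, with 2 to 3 above it. Among related genes, the gland chemokine Cxcl15 (-4.23 ± 0.65) and Jchain, which joins IgA units (-2.89 ± 0.53), were lower in KO, with Cxcl15 above the floor on 1 of 3 KO arrays. Cxcl15 is 1 of the 6 gland markers, so its difference is also part of their lower mean. Wfdc2 (1.53 ± 0.26) and Cxcl17 (3.07 ± 0.50) were higher. The part of epithelial or gland cell number in these differences was not tested.

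In KO uteri, E2 at 24 h called none of the 8 genes, and 0.00% of all genes, by limma. At an unadjusted p below 0.05 there were 0 of the 8 genes and 12.4% of all genes. Clca1 was at 10.47, 8.90 and 10.87 in KO uteri 24 h after E2, against 12.21, 10.37 and 9.39 in KO vehicle uteri. Muc1 was at 10.21, 9.86 and 9.91 after E2, against 9.90, 9.10 and 9.28 with vehicle. Both genes overlapped between the groups. The 95% interval of the difference was -0.31 to 1.45 for Muc1 and -1.99 to 0.83 for Clca1.

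Ltf under E2 at 24 h ran from 8.04 to 12.70 in KO, with values of 12.70, 8.04 and 11.04, against 9.65, 8.93 and 8.78 in KO vehicle uteri. KO E2 24 h array 2, the lowest of the 3, is the array of low weight. It was also the lowest of its group for 6 of the 8 genes, and its mean of epithelial markers was 9.25, against 10.10 and 10.27 on the other 2 arrays.

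Compared with WT under E2 at 24 h, 4 of the 8 genes were lower in KO, where 19.3% of all genes were called lower. The differences were -5.67 ± 0.68 for Clca1, -3.76 ± 0.64 for Lcn2, -3.47 ± 0.42 for Muc1 and -3.17 ± 0.76 for Pigr (adjusted p from 6.3e-07 to 0.00184). Pigr was above the floor on 2 of 3 KO arrays. The difference of Ltf was -3.07 ± 1.40, without a call (adjusted p = 0.0734), and it was called at -4.13 without KO E2 24 h array 1 (adjusted p = 0.0314, the lowest of any setting, with a highest of 0.365). The median of all genes was shifted by 0.18 in this comparison and by 0.02 after each array was centred on its median. Of 10 mucins, 5 passed the threshold as higher in KO, where 27.7% of all genes did, but 4 of the 5 were below the floor on every array of both groups. The 3 that passed it as lower were Muc1, Muc20 (-4.97 ± 0.36), above the floor on 2 of 3 KO arrays, and Muc4 (-4.42 ± 0.48), above it on 1 of 3. Of 8 CLCA genes, 4 passed it as lower and none as higher, and 1 of the 4, Clca2, was below the floor on every array of both groups.

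The change after E2 at 24 h differed between the genotypes for 3 genes, tested as an interaction in which the WT change was subtracted from the KO change. The interaction was -6.35 ± 0.96 for Clca1, -4.48 ± 0.60 for Muc1 and -3.49 ± 0.90 for Lcn2 (adjusted p of 5.5e-05, 1.29e-05 and 0.00777), where 12.2% of all genes were called lower. Pigr (-2.59 ± 1.07, adjusted p = 0.0832) and Wfdc15b (2.27 ± 0.95, adjusted p = 0.0869) were not called.

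At 2 h after E2, several genes were high on some KO arrays and not on others. Ltf was at 16.48, 16.69 and 11.91 in KO uteri 2 h after E2, against 9.65, 8.93 and 8.78 in KO vehicle uteri. Even the lowest E2 array was above all vehicle arrays, and arrays 1 and 2 exceeded every WT array of Ltf. The difference of 5.91 ± 1.40 missed the threshold (adjusted p = 0.0644).

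Cyp2f2 was at 15.20, 13.66 and 9.37 in KO uteri 2 h after E2, against 7.43, 6.96 and 7.09 in KO vehicle uteri, again with no overlap, a difference of 5.58 ± 1.48 (adjusted p = 0.0996). Pigr was at 9.08, 12.45 and 6.58 after E2, against 6.49, 5.95 and 5.90 with vehicle, where 1 of 3 arrays was above the floor. Its difference of 3.26 ± 0.76, with an SE pooled over all 10 groups, was not called (adjusted p = 0.0591). Lcn2 was at 9.23, 11.20 and 7.19 after E2, against 7.72, 6.73 and 6.98 with vehicle, and Muc1 at 10.43, 11.70 and 9.08, against 9.90, 9.10 and 9.28. These 2 genes overlapped between the groups, with differences of 2.06 ± 0.64 and 0.98 ± 0.42 (adjusted p of 0.175 and 0.352).

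None of the 8 genes was therefore called by limma in KO uteri 2 h after E2, where 0.365% of all genes were. At an unadjusted p below 0.05 there were 5 of the 8 genes, all higher, and 12.2% of all genes. In 4 genes every E2 array was above every vehicle array, as for 5.94% of all genes. These were Ltf, Cyp2f2, Pigr and Prap1. Prap1 was at 12.20, 13.05 and 12.67 in KO uteri 2 h after E2, against 9.55, 11.73 and 11.38 in KO vehicle uteri. The number of calls moved most when array 3 of the E2 group was left out. Array 3 was the lowest of its group for 7 of the 8 genes and array 2 the highest for 7. Without array 3 the 5 genes were called: Pigr (4.65, adjusted p = 0.000173), Lcn2 (3.07, 0.0078), Ltf (7.47, 0.011), Cyp2f2 (7.27, 0.0179) and Muc1 (1.64, 0.0291). Without array 2 none was called, with 1.72 for Pigr (0.274) and 5.07 for Ltf (0.368). Over all genes, 28 to 332 were called with 1 array left out, against 110 with all arrays kept. Over the settings other than leaving out 1 array, adjusted p ran from 0.0292 to 0.361 for Ltf and from 0.0342 to 0.52 for Pigr. With all arrays kept, both were called under array weights (0.0292 and 0.0342). Both were also called with genes below the floor in every group left out (0.0469 and 0.0433). Ltf was called without WT vehicle array 1 and KO E2 24 h array 2 as well (0.0427).

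The change after E2 at 2 h in KO minus that in WT was 3.42 ± 1.07 for Pigr, called at an adjusted p of 0.0499, where 3.61% of all genes were called higher. It was 5.96 ± 1.98 for Ltf (0.0667), 5.04 ± 2.10 for Cyp2f2 (0.168), 1.41 for Lcn2 (0.462) and 1.25 ± 0.60 for Muc1 (0.261), none of them called. Without KO E2 2 h array 3 these and Pigr were called, 5 genes in all, with Lcn2 at 2.42 (0.0470). Over all genes, 1665 to 2487 were called in either direction with 1 array left out, against 2412 with all arrays kept. Pigr kept its call in 1 of 12 fits that each left out 1 array, the fit without KO E2 2 h array 3, and lost it in the other 11. Without KO E2 2 h array 2 the difference was 1.88 (adjusted p = 0.085), and without WT vehicle array 1 it was 3.41 (adjusted p = 0.0741). Adjusted p over all of its settings ran from 0.000242 to 0.229, the highest with the compared groups alone in the fit. The SE pools the spread of all 10 groups. The SD of Pigr was 2.95 in KO E2 2 h, against 0.325 in KO vehicle, 0.264 in WT E2 2 h and 0.109 in WT vehicle uteri.

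Markers of other cells moved with these values. On KO E2 2 h arrays 1, 2 and 3, Krt5 was at 12.85, 12.23 and 7.60, against 7.27, 6.35 and 6.51 in KO vehicle uteri, and Trp63, a transcription factor of basal cells, at 7.53, 6.93 and 5.98, against 6.10, 5.50 and 5.47. The mean of 7 squamous markers was 5.97 to 7.50, against 5.76 to 6.28, with 3 to 5 of the 7 above the floor, against 2 to 3. S100a8, abundant in neutrophils and also made by inflamed epithelium, was at 8.66, 13.73 and 5.90, against 5.46, 5.03 and 7.10. The mean of 12 neutrophil markers was 5.35 to 7.20, against 5.38 to 5.74, with 2 to 6 above the floor, against 2 to 3. The mean of 9 macrophage markers was 7.08 to 9.01, highest on array 2, against 6.71 to 7.30 in KO vehicle uteri, and that of 5 fat markers 8.87 to 10.46, against 7.32 to 9.99. The part of these cells in the differences was not tested. Of simple epithelium, the mean of the 13 epithelial markers was 10.03 to 10.61, against 9.82 to 10.15 in KO vehicle uteri. Krt8 among them was at 12.39, 12.16 and 11.67, against 11.33, 12.25 and 12.21. The part of epithelial cell number was not tested. Of markers of airway epithelium, Scgb1a1, the defining secreted protein of club cells, was at 6.20, 6.06 and 6.18, against 6.36, 6.24 and 6.21, just above the floor. Scgb3a2 was below the floor on all 6 arrays, and the surfactant protein gene Sftpd was at 7.09, 8.21 and 7.45, against 7.19, 6.82 and 7.26, with overlap.

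**Figure D3:**
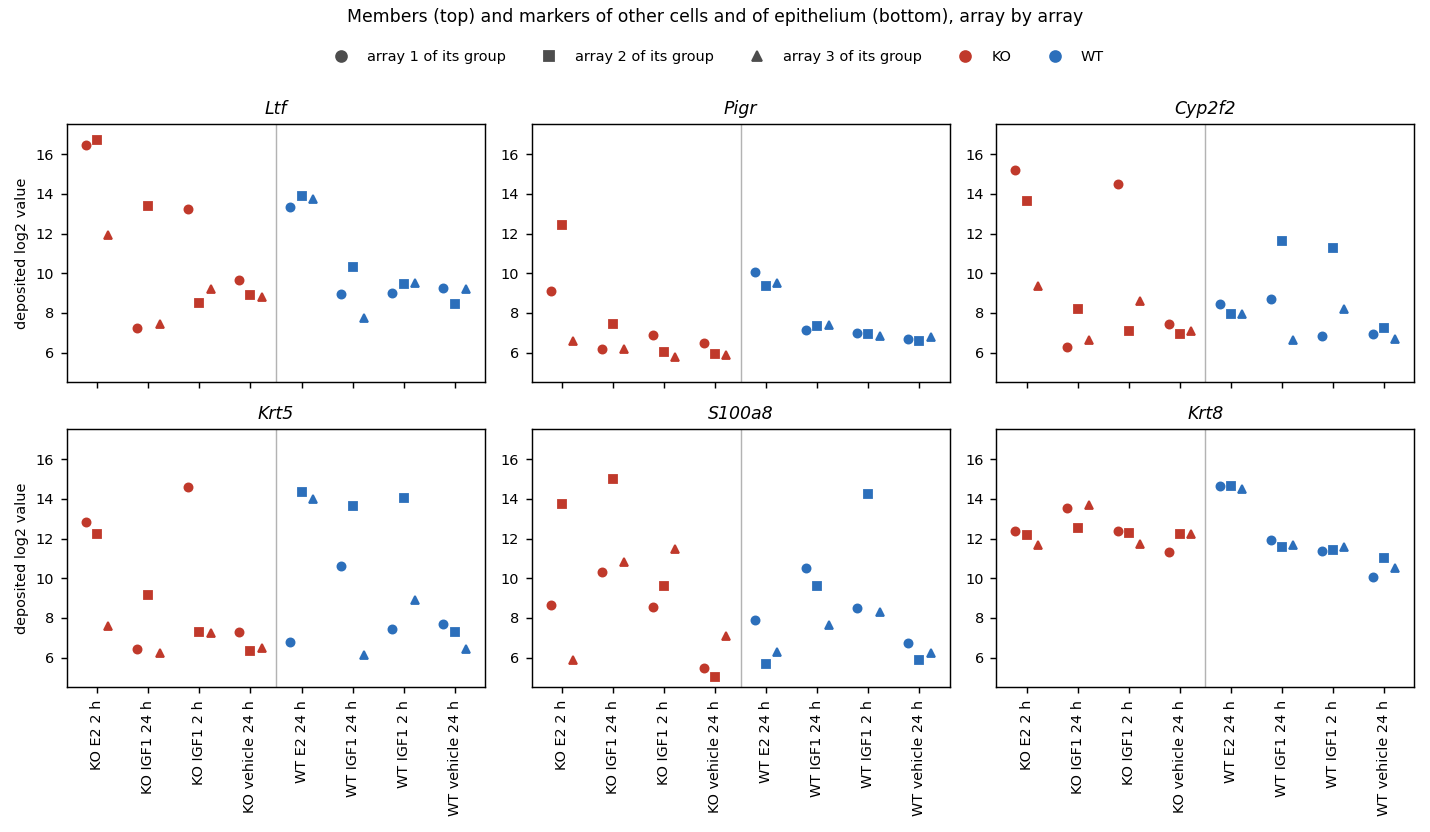
Deposited log2 values (vertical axis) of Ltf, Pigr and Cyp2f2 (top row) and of Krt5, S100a8 and Krt8 (bottom row), 1 symbol per array, in 8 groups (horizontal axis). KO groups are red and left of WT groups in blue. Cyp2f2 and Krt5 share their highest array in every KO group shown and in WT IGF1 24 h and WT IGF1 2 h. They do not share it in WT vehicle or WT E2 24 h. In WT E2 24 h Krt5 is high on 2 arrays on which Cyp2f2 is at 7.96 and 7.95. The groups not shown are WT E2 2 h, where both genes are highest on array 2, and KO E2 24 h, where they differ. In KO E2 24 h Cyp2f2 is highest on array 1 and Krt5 on array 3.

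IGF1 at 24 h raised Muc1 in KO uteri. Muc1 was at 10.58, 11.70 and 10.95 in KO uteri 24 h after IGF1, against 9.90, 9.10 and 9.28 in KO vehicle uteri. The groups did not overlap, a difference of 1.65 ± 0.42 (3.14-fold, adjusted p = 0.0101), and 9.28% of all genes were called higher. The call was lost without KO vehicle array 2 (1.49, adjusted p = 0.0571) or KO IGF1 24 h array 2 (1.34, 0.0718). Over the other settings adjusted p ran from 0.00137 to 0.0208. The change in KO minus that in WT was not called for Muc1 or any other of the 8 genes, nor for IGF1 at 2 h, where 0.00664% and 0.0133% of all genes were called. Of the 8 genes, 0 had an unadjusted p below 0.05 in either test, where 6.70% and 6.87% of all genes did.

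Lcn2 was at 7.93, 9.93 and 7.98 in KO uteri 24 h after IGF1, against 7.72, 6.73 and 6.98 in KO vehicle uteri, a difference of 1.47 ± 0.64 (adjusted p = 0.137) with no overlap. Ltf was at 7.24, 13.38 and 7.45 after IGF1, against 9.65, 8.93 and 8.78 with vehicle, so that 1 array was far above vehicle and 2 were below it. That array also had S100a8 at 15.00, against 10.31 and 10.82 on the other 2, and S100a9 at 15.02, against 9.07 and 10.16. S100a8 was called higher in this comparison (6.18 ± 1.63, adjusted p = 0.012), with 1 of 3 vehicle arrays above the floor. The mean of the 12 neutrophil markers was 5.97 to 7.04 in KO uteri 24 h after IGF1, against 5.38 to 5.74 in KO vehicle uteri. The mean of the 13 epithelial markers was 10.08 to 10.88, against 9.82 to 10.15, with overlap, and Krt8 among them rose by 1.31 ± 0.39. The part of these cells in the change of Muc1 was not tested.

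At 2 h after IGF1 none of the 8 genes was called in KO uteri, where 7.13% of all genes were, and none had an unadjusted p below 0.05, as 20.1% of all genes did. Cyp2f2 was at 14.52, 7.10 and 8.59 in KO uteri 2 h after IGF1, against 7.43, 6.96 and 7.09 in KO vehicle uteri, and Ltf at 13.25, 8.52 and 9.19, against 9.65, 8.93 and 8.78. Both were highest on array 1, and Ltf on the other arrays lay within or near the vehicle range. Krt5 was at 14.61, 7.30 and 7.25 on the same arrays.

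The spread between arrays of a group was wide for these genes, and it was uneven. The residual SD over all 30 arrays was 1.97 for Cyp2f2, and 10 of the 30142 genes had a higher one. It was 1.86 for Ltf (13 genes higher), 1.36 for Prap1 (43), 1.01 for Pigr (158), 0.904 for Clca1 (207), 0.895 for Wfdc15b (220), 0.843 for Lcn2 (267) and 0.559 for Muc1 (1127). The median over all genes was 0.224, and 0.242 over the 18204 genes above the floor in some group. The median SD of Ltf was 2.56 over the 5 KO groups, against 0.458 over the 5 WT groups. That of Pigr was 0.566 in KO, against 0.126 in WT, and that of Clca1 1.04, against 0.534. It was closer for Prap1, 1.23 in KO against 1.17 in WT, and for Wfdc15b, 0.727 against 0.682.

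**Figure D4:**
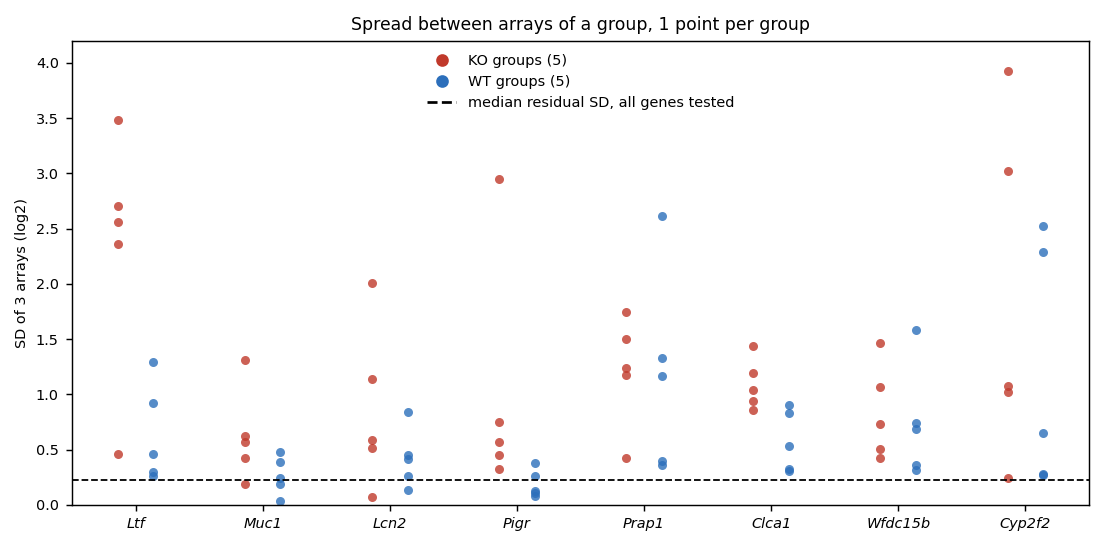
SD of the 3 arrays of a group (vertical axis, log2) for each of the 8 genes (horizontal axis), 1 point per group, with the 5 KO groups in red left of the 5 WT groups in blue and the median residual SD of all genes, 0.224, as a dashed line. The highest points are Cyp2f2 in KO IGF1 2 h (3.93) and Ltf in KO IGF1 24 h (3.48), and most points of Ltf and Pigr in WT lie below those in KO.

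The group with the widest spread was KO IGF1 2 h for Cyp2f2, KO IGF1 24 h for Ltf, KO E2 2 h for Muc1 (1.31), Lcn2 (2.01) and Pigr (2.95), and KO vehicle for Clca1 (1.44). It was a WT group for Prap1, at WT IGF1 24 h (2.61), and for Wfdc15b, at WT IGF1 2 h (1.59). Prap1 was at 7.33, 11.76 and 7.15 in WT uteri 24 h after IGF1, and Cyp2f2 at 8.70, 11.65 and 6.63 on the same arrays, on which Krt5 was at 10.63, 13.65 and 6.11. Wfdc15b was at 9.77, 7.09 and 9.90 in WT uteri 2 h after IGF1, low on array 2, where Cyp2f2 was at 11.28, Krt5 at 14.04 and S100a8 at 14.26. Single arrays held the highest value of their group for 7 of the 8 genes in KO vehicle (array 1), KO E2 24 h (array 1), KO E2 2 h (array 2) and KO IGF1 24 h (array 2).

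Ordered by group mean, the pattern differed from gene to gene. Clca1 was highest in WT E2 24 h (15.75 ± 0.30, SD, n = 3), apart from every other group, and the 9 other means, 9.93 to 10.81, followed each other with overlapping arrays. Muc1 was also highest there (13.46 ± 0.39), ahead of KO IGF1 24 h (11.07 ± 0.57) without overlap, and lowest in WT E2 2 h (8.14 ± 0.19). Its 5 KO means, 9.43 to 11.07, stood above the means of the WT groups other than E2 24 h, 8.14 to 9.20. Lcn2 and Pigr were highest in WT E2 24 h (11.02 ± 0.84 and 9.64 ± 0.38), with KO E2 2 h next (9.20 ± 2.01 and 9.37 ± 2.95) and overlapping it.

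Ltf was highest in KO E2 2 h (15.03 ± 2.70), next to WT E2 24 h (13.66 ± 0.29), which it overlapped, and the 8 other means lay between 8.92 and 10.59. Prap1 was highest in KO E2 2 h (12.64 ± 0.43) and KO IGF1 2 h (12.29 ± 1.50) and lowest in WT vehicle (7.59 ± 1.17), and each group overlapped the next. Wfdc15b ran the other way, with the 5 WT means, 8.87 to 10.11, above the 5 KO means, 7.00 to 8.21, and overlap between neighbours. Cyp2f2 had its highest means in KO E2 2 h (12.74 ± 3.02) and KO IGF1 2 h (10.07 ± 3.93), and all neighbours overlapped.

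The genes whose group means followed each member most closely were sought among 6051 genes, over 10 group means that share their arrays. Pearson's r is given for the 3 closest of each. Ltf was followed by Cfb (0.952), Eps8 (0.932) and Cd14 (0.910), and Pigr by Phf11b (0.980), Zbp1 (0.962) and Agr2 (0.930). Lcn2 was followed by Irf9 (0.955), Sting1 (0.948) and Pglyrp1 (0.944). For Muc1 these were Cblc (0.982), Tmprss4 (0.980) and Epsti1 (0.979), and for Clca1 Fam3b (0.986), Fabp6 (0.985) and Gsdmc2 (0.981). Prap1 was followed by Fads2b (0.925), Klf5 (0.923) and Mecom (0.919), Wfdc15b by Asb4 (0.948), the gland gene Cxcl15 (0.941) and Cdh16 (0.928), and Cyp2f2 by Itprid1 (0.972), Slc43a3 (0.960) and Trp63 (0.957). Among the 8 genes themselves, r was 0.885 between Ltf and Pigr, 0.882 between Lcn2 and Pigr and 0.838 between Lcn2 and Clca1, and -0.799 between Prap1 and Wfdc15b. These values describe 10 points each.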

How the data were processed

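Uterine RNA of 30 mouse samples was measured on Affymetrix arrays. Per the labels' protocols, total RNA was extracted with Trizol and a column kit and labelled with the WT Plus kit. The authors deposited 1 processed log2 value per probe set and array. The log2 scale was judged from the values, and how the arrays were normalized, with which software and on which build, is not given in the sources used here. Of 72688 deposited probe sets, 30604 carried 1 symbol, and 30142 genes were tested, the probe set of highest mean standing for the 355 genes with several. Limma 3.58.1 in R 4.3.3 fitted 10 group means to all arrays with lmFit and eBayes, with Benjamini-Hochberg adjustment within each comparison over all genes, and was tested on simulated data. The number of arrays limits the precision. Interactions were the change in KO minus that in WT.

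The 10 listed genes were described on every array, and from 8 lists of related genes up to 3 called members of largest change were named. For each listed gene the 3 genes of highest correlation over group means were sought among genes above the floor in some group with a range of at least 1 in log2. The members and lists were chosen with earlier results of these data known. Differences with an unadjusted p below 0.05, or called under any alternative, are given singly, with all of E2 at 24 h in WT. Alternatives were centring each array on its median, quantile normalization, leaving out 11938 dim genes, the mean of all probe sets, the compared groups alone, array weights, a replicate block, and leaving out 1 or 2 arrays. Same-numbered arrays deviated together, with all 3 correlations above 0.1, in 2 of 13 comparisons (correlations from -0.32 to 0.46 over all), IGF1 at 24 h against vehicle in WT and KO against WT vehicle.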

Additional observations from a re-analysis of the deposited data

Results flagged for a closer look

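These 4 results stood out because the change after E2 differed between the genotypes by the interaction test of limma. At 24 h the change in KO minus that in WT was -6.35 for Clca1, -4.48 for Muc1 and -3.49 for Lcn2. These 3 kept their calls in all 8 alternatives and in all 12 fits that left out 1 array. At 2 h it was 3.42 for Pigr, and this call held in 4 of 8 alternatives and 1 of 12 fits.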

How the results depend on the processing

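Of the 45 differences given singly, none changed sign under any alternative, and of the 91 others, none of them called under any setting, 44 did under at least 1. Under the replicate block, 5 of the 8 genes were called for E2 at 24 h in WT, as without it, and the block changed no call of these genes in any comparison. The number of genes called out of 8 moved by over 1.5 times as follows, and the cause was not tested except that the compared groups alone leave out the spread of the other groups. With the compared groups alone it was 8 for E2 at 24 h in WT (5 in the fit of all groups), 1 for E2 against IGF1 at 2 h in WT (0) and 5 for the KO minus WT change after E2 at 24 h (3). With quantile normalization it was 3 for E2 against IGF1 at 24 h in WT (5), and 3 to 4 with 1 array left out. For E2 at 2 h in KO it was 2 without dim genes, 2 with array weights, 1 without the 2 arrays of lowest weight and 0 to 5 with 1 array left out (0). For IGF1 at 24 h in KO it was 0 to 1 with 1 array left out (1). For KO against WT vehicle it was 2 with array weights, 0 without the 2 arrays and 0 to 1 with 1 left out (1). For the KO minus WT change after E2 at 2 h it was 0 after centring, 0 with quantile normalization, 2 without dim genes, 4 with array weights, 0 without the 2 arrays and 0 to 5 with 1 left out (1). Smaller moves were to 5 for KO against WT under E2 at 24 h (4) and 6 for E2 at 24 h against 2 h in WT (5) with the compared groups alone, to 4 for E2 against IGF1 at 24 h without the 2 arrays, to 4 for the KO minus WT change after E2 at 24 h with array weights, and to 4 to 5 for the first and second of these with 1 array left out.

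Over all genes, and over the alternatives other than leaving out 1 array except where said, calls ran from 4439 to 9266 for E2 at 2 h in WT (5731 in the fit of all groups), from 3338 to 8595 for IGF1 at 2 h in WT (5178), from 136 to 3946 for IGF1 at 24 h in WT (1291), from 7 to 235 for E2 at 2 h in KO (110, and 28 to 332 with 1 array left out), from 0 to 1 for E2 at 24 h in KO (0, and up to 38 with 1 left out), from 0 to 2982 for IGF1 at 2 h in KO (2150, and 310 to 3900 with 1 left out) and from 2544 to 3591 for IGF1 at 24 h in KO with 1 left out (4107). They ran from 1521 to 3893 for E2 against IGF1 at 2 h (1679, and 1178 to 1340 with 1 left out), from 2588 to 5495 at 24 h (3037, and 1583 to 2626 with 1 left out), from 211 to 2444 for KO against WT vehicle (879), from 1867 to 4626 and from 4046 to 7883 for the KO minus WT change after E2 at 2 h (2412) and 24 h (6672), and from 0 to 8 and from 1 to 18 after IGF1 at 2 h (4) and 24 h (2). Centring turned the share of calls that were higher to 69.6% for E2 at 24 h in WT (55.8% as deposited), 66.3% for E2 at 2 h in WT (51.7%), 70.8% for IGF1 at 2 h in WT (55.5%), 81.1% for E2 at 2 h in KO (70.9%), 69.6% for IGF1 at 2 h in KO (58.7%), 38.2% for KO against WT under E2 at 24 h (58.9%), and 34.2% and 22.6% for the KO minus WT change after E2 at 2 h (45.1%) and 24 h (45.0%). Quantile normalization turned it to 52.9% for IGF1 at 24 h in KO (68.1%), 47.2% at 2 h (58.7%), 66.8% for IGF1 at 24 h in WT (77.5%), 51.8% for E2 at 24 h against 2 h (61.9%) and 65.1% for E2 against IGF1 at 24 h (75.3%). Signal limits Pigr in KO vehicle uteri, where 2 of 3 arrays were below the floor.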
